A study of Homo sapiens with 15 samples.

Results

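The comparison described here set H1975–OR cells given both 1,25(OH)2D3 and osimertinib against H1975–OR cells given vehicle. Its members were chosen by their labels, as the 3 libraries with both agents (Samples 5a to 5c) and the 3 with vehicle (Samples 2a to 2c), 6 of the 15 libraries of the series. H1975 is an established line from a human lung adenocarcinoma whose EGFR carries T790M and L858R, and H1975–OR is a single subline of it, selected by growth in 500 nM osimertinib and kept in that drug during routine culture. For RNA, cells received medium with charcoal-stripped serum and vehicle, 100 nM 1,25(OH)2D3, 500 nM osimertinib or both for 96 h, with doses at 0, 48 and 92 h. Vehicle-treated cells were therefore resistant cells without added drug over those 96 h, and all arms compared shared the EGFR alleles, the subline and the medium. The other H1975–OR arms, 1,25(OH)2D3 alone (Samples 3b and 3c) and osimertinib alone (4a to 4c), entered the same fit of 11 libraries. The question was which genes differed when the resistant cells received the hormone together with the inhibitor, and whether each difference was also present with either agent alone.

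The hormone 1,25(OH)2D3 is the active form of vitamin D3 and binds the vitamin D receptor, a nuclear receptor that pairs with a retinoid X receptor on DNA and changes transcription of nearby genes. CYP24A1, the enzyme that breaks the hormone down, is its best known target. Osimertinib binds covalently to mutant EGFR and blocks its kinase, so that signaling through RAS and the MAP kinases, which feeds genes such as DUSP5, SPRY2 and MYC, is reduced in sensitive cells. Lung adenocarcinoma cells that become resistant can lose epithelial genes and gain mesenchymal ones.

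Estimated counts summed to between 4724371 and 5240477 per library with vehicle, between 4378030 and 4941496 with both agents, and between 4378030 and 5639500 over the fit. Levels are given as CPM, a gene's share of the library's counts scaled with the TMM factors of edgeR, and a count of 3, the most that an absent gene allows, corresponded to between 0.551 and 0.695 CPM. These floors cover counting error only. Libraries lettered a stood apart from the others: on the first principal component, with 19.9% of the variance, Samples 2a, 4a and 5a lay between -50.7 and -43.8 and the other 8 between 2.99 and 34.4. The lung and epithelial markers KRT7, KRT8, KRT18, NKX2-1 and ABCA3 were present at over 30 CPM in all 6 libraries, whereas the surfactant genes SFTPA1, SFTPA2, SFTPB, SFTPC and SFTPD did not exceed 1.43 CPM. Other lung identity genes were low too: NAPSA, SLC34A2, FOXA1, FOXA2 and SCGB1A1 did not exceed 1.613 CPM, and MUC1 did not exceed 4.189 CPM. Of 11 leukocyte, endothelial and fibroblast markers, CD3E and CD79A had no counts in any of the 6 libraries, and CD68 had the highest count, 104 in Sample 5a. Of these 11, 3 were expressed enough to be tested and none was called (median log2 fold change with both agents -0.40), and of 14 lung identity genes 4 were tested and KRT7 was called higher (median 0.11). In bulk RNA, fewer cells of a kind and less RNA per cell cannot be told apart.

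With both agents, CYP24A1 rose over 100-fold, COL1A1, CDH1, SLC44A2 and AFAP1L2 rose by between 5.6-fold and 10.6-fold, and RGS4 and ANPEP fell by over 10-fold. In the fit with the replicate letter as a block, 283 of the 12503 genes tested were higher with both agents (2.26%) and 178 were lower (1.42%), with edgeR's quasi-likelihood test and a threshold of 0.05 on p-values adjusted over all genes. These numbers depended on how the spread was estimated. Without the block, 48 genes were higher (0.384%) and 14 lower (0.112%), all 62 of them also called with it, and with the 6 compared libraries alone and the block, 9 genes were called. Leaving out 1 library at a time gave 888 calls without Sample 2a, 64 without 2b, 47 without 2c, 174 without 5a, 74 without 5b and 157 without 5c. No called gene changed direction under any of the 18 alternatives. The libraries of the groups did not overlap for 988 of all genes tested in the higher direction (7.9%) and for 1040 in the lower (8.32%), and 355 of the 461 called genes were among these. Of the called genes, 4 stayed called under all 18 alternatives, namely CYP24A1, SLC44A2, COL1A1 and AFAP1L2. Another 14 lost their call only in one or both fits of 6 libraries: ANPEP, which was lower, and ARRDC3, CDH1, CRIP1, FN1, GPNMB, GRN, LOX, PFKP, PLEKHA7, PMEPA1, SLC43A2, UBASH3B and ZNF185, which were higher.

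**Figure D1:**
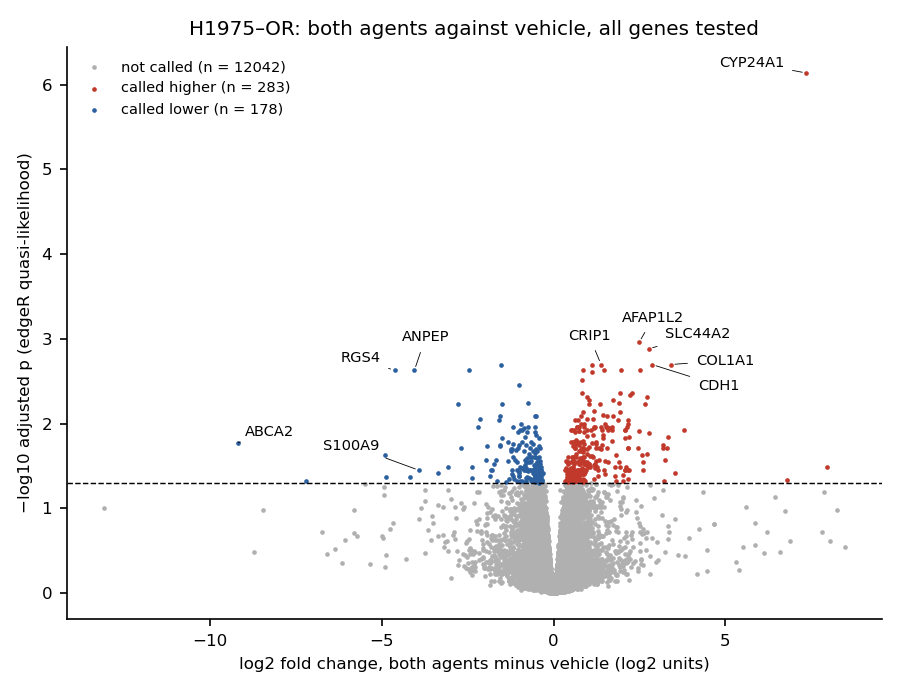
Each point is one of the 12503 genes tested, with the log2 fold change of both agents minus vehicle on the x axis and −log10 of the adjusted p of edgeR's quasi-likelihood test on the y axis, and the dashed line marks an adjusted p of 0.05. CYP24A1 stands alone at the upper right, and the 283 genes called higher outnumber the 178 called lower.

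**Figure D2:**
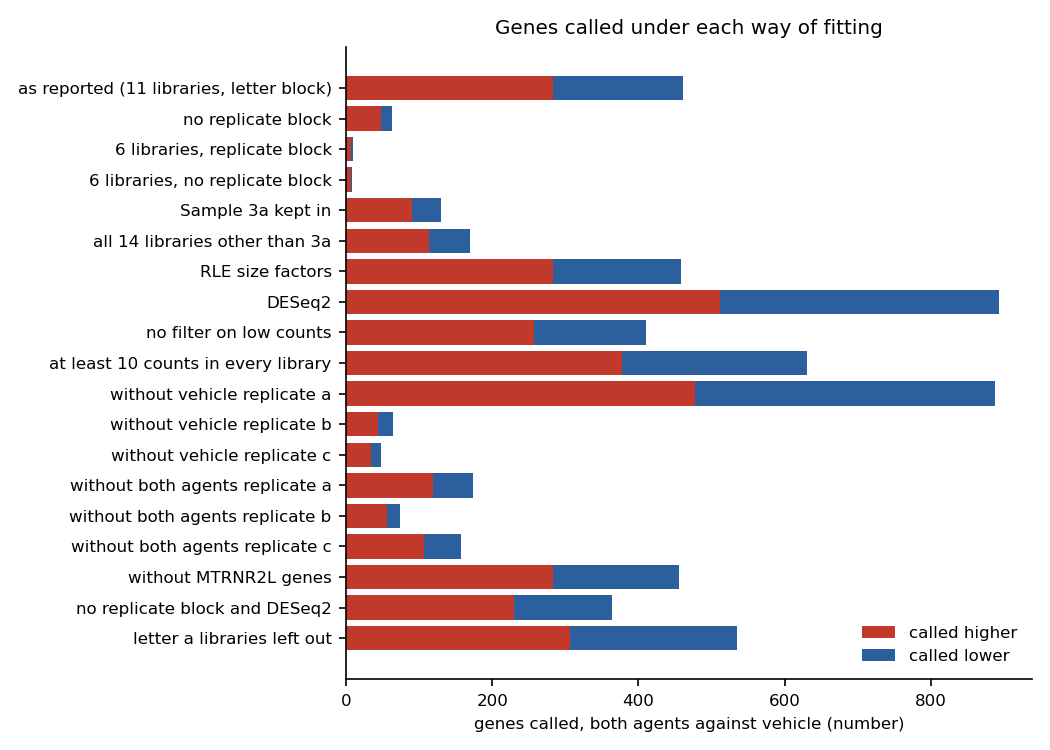
Bars give the number of genes called higher and lower with both agents against vehicle under the fit reported and under each alternative. The number ranges from 8 with the 6 libraries alone and no block to 894 with DESeq2.

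Vitamin D receptor targets were the list with the highest median. Of 28 genes written into it, 23 were tested, and 8 were called higher and 1 lower, against 2.26% and 1.42% of all genes tested. The median log2 fold change of the 23 was 0.65, against -0.003 over all genes tested. Without the block, 3 of the 23 were called, and the median was 0.40 without Sample 2b.

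CYP24A1, on chromosome 20 from 54153446 to 54173986 on the minus strand of GRCh38, stood at 8.51, 3.26 and 4.76 CPM in the vehicle libraries a, b and c. With both agents it stood at 1053, 663 and 898 CPM, so that the lowest treated library was far above the highest vehicle library. The log2 fold change was 7.36 ± 0.18 (SE), with an adjusted p of 7.29e-07 by edgeR's quasi-likelihood test. Osimertinib alone left it at 9.10, 3.44 and 6.86 CPM, and 1,25(OH)2D3 alone raised it to 860 and 1452 CPM.

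IGFBP3, which binds insulin-like growth factors, stood at 67.9, 32.0 and 34.5 CPM with vehicle and at 324, 137 and 81.8 CPM with both agents. The groups did not overlap, but the letter a library was the highest of each, and the change of 1.89 ± 0.21 (edgeR adjusted p = 0.0058) was not called without the block (adjusted p = 0.14). FBP1, a gluconeogenic enzyme, went from 5.07 ± 1.47 to 19.3 ± 5.99 CPM (SD, n = 3), and NINJ1, a membrane protein of cell lysis, from 80.9 ± 6.25 to 134 ± 3.00 CPM. Their log2 fold changes were 1.92 ± 0.22 and 0.73 ± 0.10, with edgeR adjusted p of 0.0072 and 0.011, and NINJ1 was also called without the block (0.034). FBP1 changed by 1.02 ± 0.25 with 1,25(OH)2D3 alone and by 1.01 ± 0.22 with osimertinib alone. The same values for NINJ1 were 0.92 ± 0.11 and 0.18 ± 0.10. The other called members, named after their values were seen, were SEMA3B (1.62), DUSP10 (0.97), SERPINB1 (0.80) and SPP1 (3.25), all higher, and STEAP4 (-1.65), which was lower. For SPP1, DUSP10 and SERPINB1 the libraries of the groups overlapped, and of these 5 SEMA3B alone was called without the block. STEAP4 changed by -0.61 ± 0.40 with 1,25(OH)2D3 alone and by -1.78 ± 0.37 with osimertinib alone.

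Among receptors and enzymes of the hormone itself, 7 of 12 genes were tested and only CYP24A1 was called. VDR, the receptor, stood at 26.5, 29.9 and 33.7 CPM with vehicle and 28.6, 20.5 and 26.2 CPM with both agents, a log2 fold change of -0.28 ± 0.19 that did not pass (edgeR adjusted p = 0.47). The partner gene RXRA was at 10.5, 25.0 and 18.1 CPM with vehicle and 3.77, 6.45 and 5.10 CPM with both agents, without overlap, and its change of -1.80 ± 0.53 did not pass either (edgeR adjusted p = 0.10). CAMP, the cathelicidin gene that the hormone raises in myeloid cells, stayed at or below 6.28 CPM in these 6 libraries.

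Promoter sequence was examined for the direct repeat that the receptor and its partner are known to bind, a pair of 6-base elements (AGGTCA, with the variants AGTTCA or GGGTCA or else GGTTCA) spaced by 3 bases, on both strands, in the 250 bases upstream of RefSeq starts (GRCh38.p14). None of the 212 genes called higher with an entry held one, and neither did any of the 131 called lower, against 6 of the 9714 tested genes with an entry (0.0618%). A single 6-base element, searched after the repeat was not found, was present upstream of 45.8% of the genes called higher, 36.6% of those called lower and 35.3% of all tested. Genes called higher had more entries each (1.72) than all tested (1.47), so these shares are a description only. CYP24A1, COL1A1 and CDH1 had no entry. The stretches below, in capitals the element, belong to the genes called in at least 17 of 18 alternatives that had one, read in the direction of the gene:
AFAP1L2 (chr10:114404540-114404569, minus strand): cggccgcgagcgTGACCTcacggggagggg
SLC44A2 (chr19:10602242-10602271, plus strand): tgaatgaatgaaTGACCTctgtttgctcac
CRIP1 (chr14:105486650-105486679, plus strand): gcgtgggatggaAGGTCAgagtgggttcct
ZNF185 (chrX:152917604-152917633, plus strand): gtccttgtcctgGGGTCAgtcctgactagg
The element began 55, 201, 224 and 227 bases upstream of the RefSeq start of the entry that held it, respectively. That start need not be the outermost of the gene. The stretches of AFAP1L2, CRIP1 and ZNF185 lay within the GENCODE spans of their genes, and ZNF185 had 4 entries. TGACCT is AGGTCA read on the other strand, and such a match is not a binding site.

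COL1A1 and AFAP1L2 were high in both arms with the hormone. COL1A1, a chain of type I collagen, stood at 9.72, 8.55 and 9.90 CPM with vehicle and 80.7, 122 and 104 CPM with both agents (log2 fold change 3.41 ± 0.27, edgeR adjusted p = 0.0020). It was at 150 and 98.2 CPM with 1,25(OH)2D3 alone, and at 11, 26.3 and 10.5 CPM with osimertinib alone. AFAP1L2, an adaptor that binds actin filaments, stood at 11.3, 9.97 and 13.1 CPM with vehicle and 49.8, 68.9 and 77.1 CPM with both agents (2.48 ± 0.16, edgeR adjusted p = 0.0011). For both genes the lowest library with both agents exceeded every library with vehicle and with osimertinib alone.

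SLC44A2, a choline transporter-like protein, was high in both arms with osimertinib. It stood at 162, 139 and 123 CPM with vehicle, 813, 986 and 1112 CPM with both agents (2.76 ± 0.19, edgeR adjusted p = 0.0013), 171 and 140 CPM with 1,25(OH)2D3 alone and 616, 906 and 920 CPM with osimertinib alone. ZNF185, an actin-associated LIM protein, likewise stood at 17.4, 8.75 and 9.33 CPM with vehicle, 78.9, 65.7 and 83.9 CPM with both agents and 72.1, 46.5 and 71.2 CPM with osimertinib alone (2.73 ± 0.29 for both agents against vehicle, edgeR adjusted p = 0.0048). TMPRSS2, a transmembrane serine protease, rose by 2.79 ± 0.40 and DUSP15, a phosphatase, by 3.18 ± 0.50 on the log2 scale, and both stood higher than with 1,25(OH)2D3 alone (edgeR adjusted p = 0.047 for each). Without the block DUSP15 was called and TMPRSS2 was not (edgeR adjusted p = 0.029 and 0.053).

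For the remaining large rises the letter a library with both agents was the lowest. CLEC7A, the dectin-1 receptor of fungal glucans, stood at 9.52, 13.0 and 9.52 CPM with vehicle and 25.8, 176 and 220 CPM with both agents, a change of 3.33 ± 0.49 (edgeR adjusted p = 0.0145, and 0.069 without the block). COL4A3 and COL4A4, chains of the type IV collagen of basement membranes, rose by 3.18 ± 0.52 and 2.73 ± 0.46, from 4.62 ± 1.77 to 46.2 ± 16.4 CPM and from 14.3 ± 2.77 to 110 ± 52.2 CPM (SD, n = 3). AGER, a receptor for advanced glycation end products that is abundant in type I alveolar cells, went from 1.73 ± 0.55 to 18.8 ± 9.15 CPM. Without the block COL4A3 kept its call, and COL4A4 and AGER did not (edgeR adjusted p = 0.040, 0.068 and 0.059). ZNF114, a zinc finger gene, was instead highest in letter a in every arm that had one, and its change of 2.67 ± 0.30 was lost without the block (edgeR adjusted p = 0.31).

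**Figure D3:**
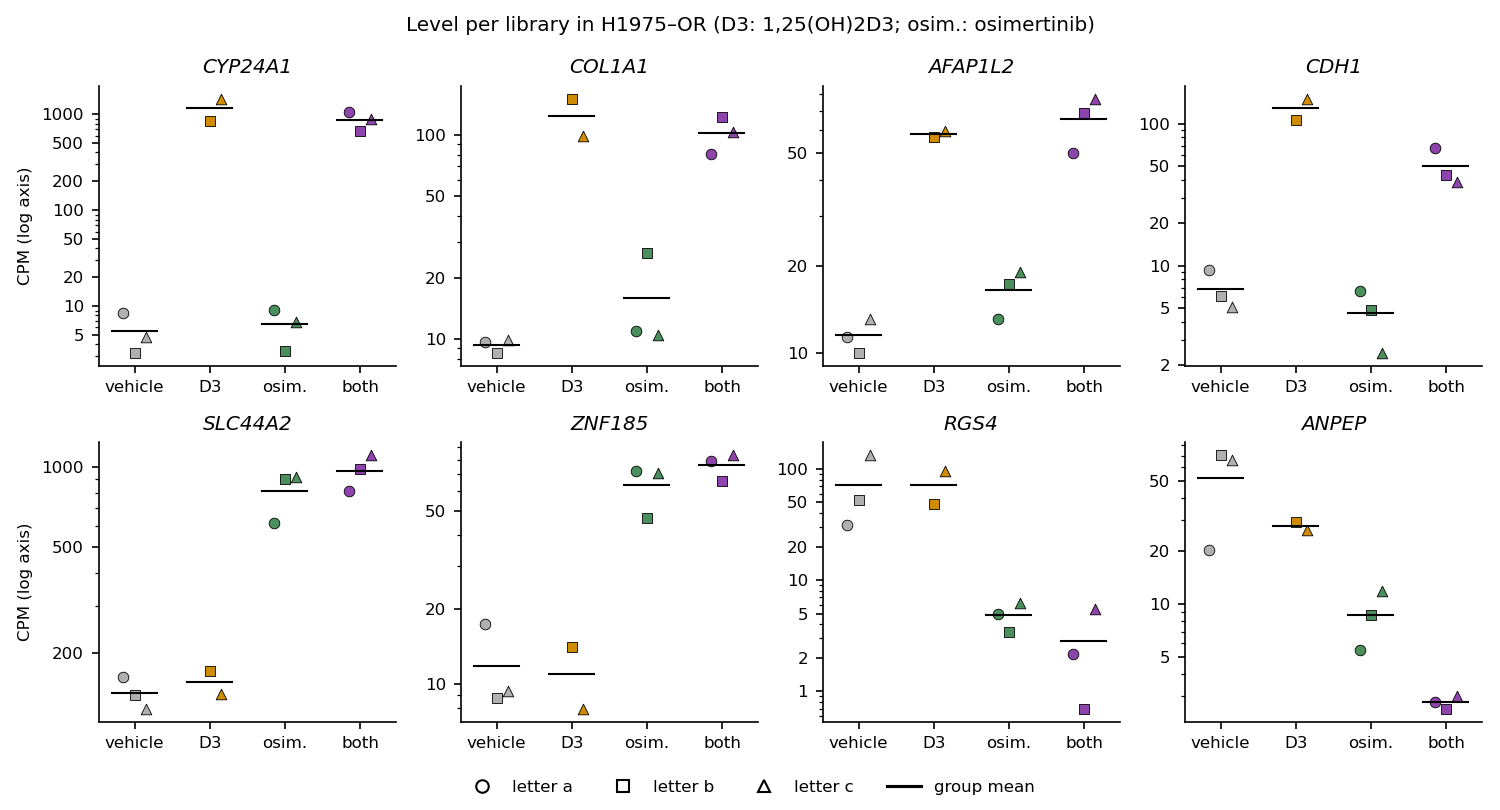
Levels in CPM on log axes of 8 genes in the 11 H1975–OR libraries by arm, with the marker giving the replicate letter and the line the group mean. CYP24A1, COL1A1, AFAP1L2 and CDH1 are high in both arms with 1,25(OH)2D3, and SLC44A2 and ZNF185 in both arms with osimertinib. RGS4 and ANPEP are low in both arms with osimertinib and have their lowest mean with both agents.

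Among the falls, RGS4, which quenches G protein signaling, stood at 31.6, 52.1 and 133 CPM with vehicle and 2.18, 0.691 and 5.56 CPM with both agents (-4.63 ± 0.41, edgeR adjusted p = 0.0024). It was at 4.93, 3.44 and 6.25 CPM with osimertinib alone and at 48.8 and 95.1 CPM with 1,25(OH)2D3 alone. ANPEP, the aminopeptidase CD13 of the cell surface, stood at 20.3, 70.6 and 65.9 CPM with vehicle and 2.78, 2.53 and 3.01 CPM with both agents (-4.06 ± 0.36, edgeR adjusted p = 0.0024). Its level was 29.3 and 26.4 CPM with 1,25(OH)2D3 alone and 5.50, 8.70 and 11.9 CPM with osimertinib alone, so that every treated arm had a lower mean than vehicle and the lowest mean was with both agents. The difference between both agents and osimertinib alone was not called for RGS4 or ANPEP (edgeR adjusted p = 0.65 and 0.20).

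S100A9, a subunit of calprotectin, stood at 6.48, 25.2 and 20.8 CPM with vehicle and 1.78, 1.38 and 0 CPM with both agents (-3.91 ± 0.78, edgeR adjusted p = 0.036). TGM2, a transglutaminase, fell by 2.37 ± 0.51 on the log2 scale, STMN3, a stathmin that destabilizes microtubules, by 1.98 ± 0.35, and CHI3L2, a chitinase-like protein, by 2.38 ± 0.45, and for each the vehicle library a was the lowest of its group. The levels of these 4 genes with osimertinib alone were close to those with both agents, at 1.61 to 1.90 CPM for S100A9 and 29.4 to 33.6 CPM for TGM2. CKB, the brain type of creatine kinase, behaved differently, at 27.3, 30.5 and 28.2 CPM with vehicle, 17.4, 53.0 and 33.3 CPM with osimertinib alone and 4.16, 12 and 8.57 CPM with both agents (-1.94 ± 0.31 against vehicle, edgeR adjusted p = 0.018). CYP4X1, a cytochrome P450, fell by 2.71 ± 0.44, PGD, an enzyme of the pentose phosphate pathway, by 1.84 ± 0.39, and LRRC4C, a ligand of netrin G, by 1.73 ± 0.32. Of the genes in this paragraph, CYP4X1 alone was called without the block (edgeR adjusted p = 0.029), and the others lay between 0.052 for S100A9 and 0.20 for LRRC4C.

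Other falls were also present with each agent alone, in comparisons that share the vehicle libraries. DENND2A, which activates Rab proteins, was at 20.5, 25.6 and 24.6 CPM with vehicle and between 1.27 and 5.10 CPM in all 8 other libraries of the fit (-3.07 ± 0.58 for both agents, edgeR adjusted p = 0.033, and 0.071 without the block). ABCA2, a lipid transporter, had 20.4 and 27.0 CPM in Samples 2b and 2c but 0.608 CPM in 2a, and was at 0 in Samples 5a to 5c. It was at 0 in Samples 3b, 3c, 4a and 4b and at 0.202 CPM in 4c. By the mean of the vehicle libraries it was at least 24.2-fold lower with both agents, with the floor of 3 counts per library. Sample 2a was itself at that floor, so the bound rests on Samples 2b and 2c. The call of ABCA2 (edgeR adjusted p = 0.017) was lost without the block (0.14) and with DESeq2 (DESeq2 adjusted p = 0.27).

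**Figure D4:**
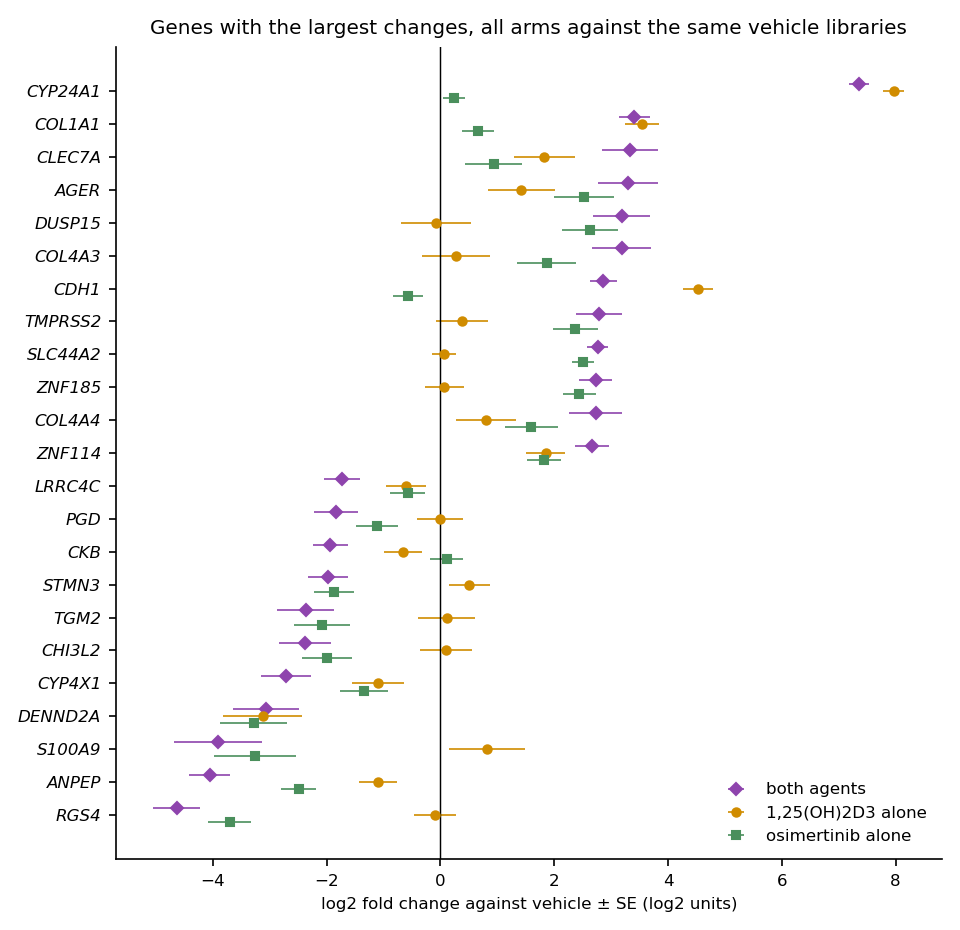
Points give the log2 fold change ± SE against vehicle of the genes with the largest rises and falls with both agents, beside the same with 1,25(OH)2D3 alone and osimertinib alone, and all 3 share the vehicle libraries. CYP24A1, COL1A1 and CDH1 are far from 0 with 1,25(OH)2D3 alone, and SLC44A2, ZNF185, RGS4 and S100A9 with osimertinib alone. ABCA2 is left out because it was at 0 with both agents.

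Both agents were then compared directly with each agent alone, where the vehicle libraries cancel. Against osimertinib alone, 23 genes were higher (0.184%) and 10 lower (0.08%), and against 1,25(OH)2D3 alone 102 were higher (0.816%) and 81 lower (0.648%), by edgeR's quasi-likelihood test in the same fit. Without the block the totals were 12 and 32. Of the 283 genes higher than vehicle, 21 were also higher than with osimertinib alone and 64 higher than with 1,25(OH)2D3 alone, and 0 were higher than with each. Of the 178 lower ones, 8 were lower than with osimertinib alone and 50 lower than with 1,25(OH)2D3 alone, and 6, all MTRNR2L genes, were lower than with each.

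Between both agents and osimertinib alone, the genes with the smallest p outside the MTRNR2L genes, which are described separately, were CYP24A1 (log2 difference 7.12), CDH1 (3.43), AFAP1L2 (1.97), CRIP1 (1.23), MELTF (2.43) and JUNB (1.27), each with an edgeR adjusted p of 0.00483 or less. COL1A1 was also higher than with osimertinib alone (2.74, edgeR adjusted p = 0.00501). CRIP1, a small LIM domain protein, was the most even of them, at 27.5, 26.7 and 24.9 CPM with vehicle, 28.1, 30.5 and 29.2 CPM with osimertinib and 73.2, 65.4 and 67.4 CPM with both agents. MELTF, the iron-binding melanotransferrin, stood at 24.5, 14.5 and 11.6 CPM with vehicle and 136, 68.7 and 79.7 CPM with both agents, and JUNB, a subunit of AP-1, at 48.6, 75.1 and 86.3 and at 113, 156 and 150 CPM. For MELTF and JUNB the change against vehicle was not called without the block (edgeR adjusted p = 0.068 and 0.12).

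Between both agents and the hormone alone, the smallest p outside the MTRNR2L genes belonged to MALL, SLC44A2, ANKRD1, ELF3, RGS4 and HSPA4L. ELF3, an epithelial ETS factor, stood at 13.0, 16.1 and 11.4 CPM with vehicle, 9.98 and 5.69 CPM with 1,25(OH)2D3, 20.3, 26.9 and 18.2 CPM with osimertinib and 30.7, 38.5 and 23.6 CPM with both agents (log2 difference 2.02 from 1,25(OH)2D3 alone, edgeR adjusted p = 0.0099). ANKRD1, a target of YAP, was at 234 and 219 CPM with 1,25(OH)2D3 and 469, 567 and 574 CPM with both agents (1.31, adjusted p = 0.0069 by edgeR), and HSPA4L, of the heat shock 70 family, at 45.4 and 43.1 and at 111, 89.4 and 89.9 CPM. MALL, a lipid raft protein, went the other way: it stood at 122 and 179 CPM with the hormone alone but at 9.91, 36.9 and 48.2 CPM with both agents, against 10.5, 40.7 and 54.6 CPM with vehicle, and its difference from vehicle was -0.14 ± 0.11 (edgeR adjusted p = 0.52).

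A departure from additivity, the difference between the hormone's log2 effect with and without osimertinib, was called for 0 genes (0%) by edgeR's quasi-likelihood test. At an unadjusted p under 0.05 there were 283 estimates above 0 and 313 below. That threshold passes a share of about 0.05 of the 12503 genes tested when none departs, so these counts alone show no departure. DESeq2 called 10 above and 11 below at an adjusted p under 0.05. The estimate was -0.85 ± 0.24 for CYP24A1, -1.09 ± 0.35 for CDH1, 1.33 ± 0.24 for ELF3 and -0.84 ± 0.16 for MALL, so that these genes were not shown to depart from additivity over all genes tested.

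Genes expressed downstream of MAP kinase signaling had the lowest median of the lists, -0.71 over the 20 tested, with 4 called lower and 0 higher. Over all genes tested, 1.42% were called lower and 2.26% higher. The median of the list was -0.55 with osimertinib alone and -0.06 with 1,25(OH)2D3 alone, each against the same vehicle libraries. None of the 4 was called without the block, and the medians of the within-letter differences were -0.212, -0.757 and -0.996 in letters a, b and c. IER3, an early response gene, stood at 104, 131 and 172 CPM with vehicle and 73.0, 53.2 and 63.7 CPM with both agents (-1.09 ± 0.18, edgeR adjusted p = 0.021). DUSP5, a phosphatase of ERK, was at 21.3, 22.2 and 18.5 CPM and at 13.9, 8.53 and 6.02 CPM (-1.20 ± 0.25, edgeR adjusted p = 0.041), and SPRY2, a feedback inhibitor of receptor kinases, at 60.8, 82.0 and 90.4 and at 43.2, 56.0 and 45.9 CPM (-0.67 ± 0.12, edgeR adjusted p = 0.027). These 3 were among 6 members of the list that were lower without overlap between the groups, against 8.32% of all genes tested. MYC overlapped, at 723, 446 and 780 CPM against 530, 254 and 313 CPM, and was lower in every letter (-0.87 ± 0.14, edgeR adjusted p = 0.021). With both agents, 2 members were lower than with 1,25(OH)2D3 alone and 0 differed from osimertinib alone.

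None of the 10 tested genes of the EGFR family and its ligands was called, and their median was -0.36. EGFR stood at 102, 175 and 172 CPM with vehicle and 178, 203 and 128 CPM with both agents (0.19 ± 0.19, edgeR adjusted p = 0.63). ERBB2, its dimerization partner, was at 99.9, 156 and 108 CPM and at 121, 320 and 235 CPM (0.79 ± 0.20, edgeR adjusted p = 0.072), and the ligand gene HBEGF at 128, 177 and 302 CPM and at 91.6, 158 and 203 CPM (-0.41 ± 0.10, edgeR adjusted p = 0.063). The ligand gene AREG did not exceed 0.397 CPM with both agents and was at 1.22, 2.04 and 4.57 CPM with vehicle.

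Of 24 epithelial genes tested, 5 were called higher and 0 lower, with a median of -0.07. Over all genes tested the shares were 2.26% higher and 1.42% lower. CDH1, the gene of E-cadherin, on chromosome 16 from 68737292 to 68835537 of GRCh38, stood at 9.32, 6.11 and 5.14 CPM with vehicle and 67.2, 43.5 and 38.9 CPM with both agents (2.86 ± 0.23, edgeR adjusted p = 0.0020). The groups did not overlap. With 1,25(OH)2D3 alone it stood at 107 and 150 CPM, and both agents gave less than the hormone alone (log2 difference -1.66, edgeR adjusted p = 0.026), while osimertinib alone left it at 6.64, 4.85 and 2.42 CPM. CLDN4, a claudin of tight junctions, was at 39.1, 64.1 and 51.8 CPM with vehicle and 99.9, 86.2 and 105 CPM with both agents (0.94 ± 0.18, edgeR adjusted p = 0.031, and 0.10 without the block). ELF3 and KRT7 were also called, at 1.18 ± 0.16 and 0.82 ± 0.15. Of the 5, only CDH1 was called without the block, and for KRT7, a keratin, the groups overlapped. EPCAM, an adhesion molecule of epithelia, was at 12.6, 9.16 and 12.6 CPM with vehicle and 10.1, 1.15 and 9.03 CPM with both agents, and did not pass the test (edgeR adjusted p = 0.35).

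Mesenchymal genes went both ways, with 5 of 23 tested called higher, 3 called lower and a median of 0.07. The shares over all genes tested were 2.26% called higher and 1.42% called lower. The 5 higher ones encode matrix proteins or their cross-linking enzymes: COL1A1 (3.41), LOX (1.94), FN1 (1.42), LOXL2 (0.74) and COL5A1 (0.73). LOX, lysyl oxidase, stood at 29.98, 32.4 and 31.0 CPM with vehicle and 162, 124 and 82.9 CPM with both agents (SE 0.19, edgeR adjusted p = 0.0043), and FN1, fibronectin, at 64.8, 51.5 and 50.1 and at 221, 118 and 120 CPM (SE 0.17, edgeR adjusted p = 0.0078). Both kept their call without the block, as did COL1A1, and the other called members of the list did not. The 3 lower ones were MMP2, S100A4 and TGFBI. S100A4, a calcium-binding protein, stood at 198, 208 and 233 CPM with vehicle and 78.5, 116 and 140 CPM with both agents (-0.97 ± 0.14, edgeR adjusted p = 0.012). MMP2, a gelatinase, was at 0.810, 7.33 and 9.52 CPM and at 0, 1.15 and 0.463 CPM, which overlapped, and its call (edgeR adjusted p = 0.038) rested on few counts and was lost without the block (0.26). VIM, vimentin, stood at 2882, 3864 and 4140 CPM with vehicle and 2879, 3342 and 4010 CPM with both agents, a change of -0.09 ± 0.07 that did not pass (edgeR adjusted p = 0.51).

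**Figure D5:**
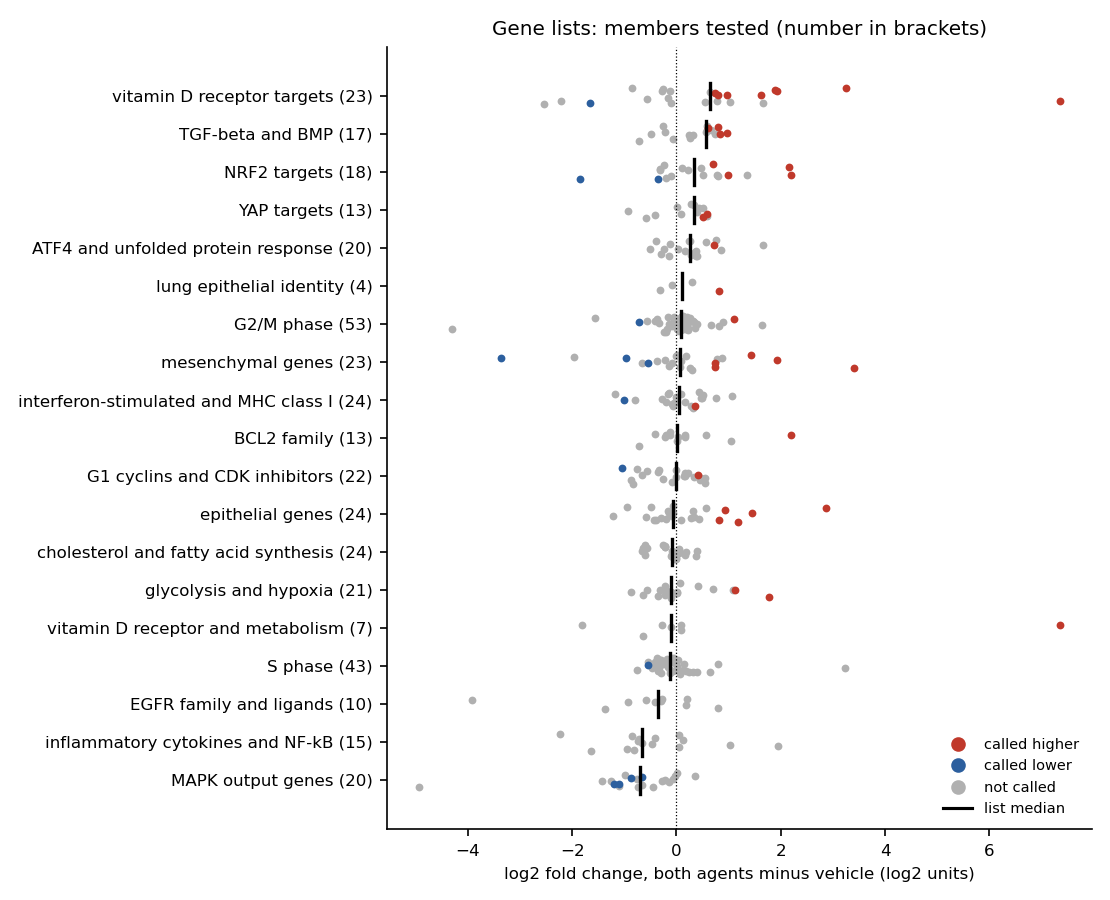
Points give the log2 fold change of each tested member of 19 gene lists, with called members in color and the black bar at the list median. Vitamin D receptor targets have the highest median, 0.65, and MAP kinase output genes the lowest, -0.71, and most members of every list are not called.

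For cell cycle genes the call counts were near the shares over all genes tested (2.26% higher, 1.42% lower). Of 43 S phase genes, 0 were called higher and 1 lower, with a median of -0.12, and of 53 G2/M genes 1 was called in each direction, with a median of 0.09. The medians against vehicle were -0.41 and -0.35 with 1,25(OH)2D3 alone and 0.15 and 0.54 with osimertinib alone. UBE2C, which feeds the anaphase-promoting complex, stood at 50.4, 54.3 and 55.2 CPM with vehicle, 24.4 and 30.3 CPM with 1,25(OH)2D3, 58.6, 55.0 and 63.7 CPM with osimertinib and 32.7, 27.2 and 38.2 CPM with both agents. It was lower than vehicle (-0.72 ± 0.12, edgeR adjusted p = 0.023) and lower than with osimertinib alone (-0.86, edgeR adjusted p = 0.043). The call against osimertinib alone was lost when the MTRNR2L genes were left out, where 0 genes were called lower. SMC4, a condensin subunit, rose by 1.11 ± 0.19 (edgeR adjusted p = 0.024), and MRPL36, a mitochondrial ribosomal protein that the S phase list carries, fell by 0.55 ± 0.11 on the log2 scale (edgeR adjusted p = 0.038). None of these 3 was called against vehicle without the block. Among 22 G1 cyclins and CDK inhibitors, with a median of -0.01, CDKN1C, an inhibitor of cyclin-dependent kinases, was lower in every letter (-1.05 ± 0.15, edgeR adjusted p = 0.013), with overlapping groups and no call without the block (0.44). CCND1 stood at 261, 899 and 967 CPM with vehicle and at 260, 435 and 532 CPM with both agents, with no difference in letter a, and did not pass (edgeR adjusted p = 0.090).

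The remaining lists are given against the shares over all genes tested, 2.26% called higher and 1.42% called lower. Of 17 TGF-beta and BMP genes, 4 were called higher and 0 lower, with a median of 0.57. They were ID2, a partner of helix-loop-helix factors (0.97 ± 0.12), LTBP2, a latent TGF-beta binding protein (0.84 ± 0.16), SMAD6, an inhibitor of BMP signaling (0.80 ± 0.10), and the ligand TGFB2 (0.61 ± 0.12), and none was called without the block. Of 18 NRF2 targets, AKR1C3, GCLC, AKR1C1 and HMOX1 were higher and PGD and TXN lower, with a median of 0.34. None of these 6 was called without the block, and the libraries of GCLC and HMOX1 overlapped between the groups. GCLC, a subunit of the enzyme that limits glutathione synthesis, stood at 6.28, 2.04 and 8.57 CPM with vehicle, 33.5, 8.30 and 37.8 CPM with both agents and 23.8 and 53.6 CPM with 1,25(OH)2D3 alone, and was higher than with osimertinib alone (2.26, edgeR adjusted p = 0.045).

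Of 21 glycolysis and hypoxia genes, PFKP and ADM were called higher. PFKP, the platelet type of phosphofructokinase, stood at 132, 112 and 129 CPM with vehicle, 168 and 229 CPM with 1,25(OH)2D3, 179, 156 and 173 CPM with osimertinib and 276, 225 and 313 CPM with both agents (1.12 ± 0.09, edgeR adjusted p = 0.0020, and 0.023 without the block). Each library with both agents was above the libraries with vehicle and with osimertinib alone, and the difference from osimertinib alone passed (0.67, edgeR adjusted p = 0.027). ANKRD1 and TEAD1 of 13 YAP targets were higher, with a list median of 0.33. ADM, ANKRD1 and TEAD1 were not called without the block (edgeR adjusted p = 0.45, 0.15 and 0.19). BMF, a BH3-only member of the BCL2 family, was the 1 of 13 called there, at 22.1, 20.2 and 12.2 CPM with vehicle and 38.9, 170 and 87.3 CPM with both agents (2.19 ± 0.42, edgeR adjusted p = 0.035), with 30.7, 112 and 63.7 CPM with osimertinib alone. PHGDH, of serine synthesis, was the 1 of 20 called among ATF4 and unfolded protein response genes (0.72 ± 0.11, edgeR adjusted p = 0.0165). Neither BMF nor PHGDH was called without the block (edgeR adjusted p = 0.15 and 0.14). Of 24 interferon-stimulated and MHC class I genes HLA-B was higher (0.36 ± 0.07) and OAS1 lower (-1 ± 0.21), with overlapping libraries for both, and neither was called without the block (edgeR adjusted p = 0.80 and 0.40). None of 24 genes of cholesterol and fatty acid synthesis and none of 15 inflammatory genes was called, with medians of -0.08 and -0.66, and the latter was -0.26 without Sample 2c. CXCL8, a chemokine of neutrophils, stood at 18.8, 13.0 and 71.6 CPM with vehicle and 7.93, 5.53 and 3.71 CPM with both agents, without overlap, and did not pass (edgeR adjusted p = 0.063).

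The MTRNR2L genes, nuclear copies that closely resemble mitochondrial 16S ribosomal RNA and whose reads are hard to assign, were low in all 3 libraries with both agents. They took between 0.0732% and 0.0963% of the counts there, against between 0.171% and 0.435% in the other 8 libraries of the fit. MTRNR2L8 stood at 273.6, 408.7 and 565.9 CPM with vehicle and 106.5, 149.5 and 169.6 CPM with both agents (-1.52 ± 0.12, edgeR adjusted p = 0.0020). Of 7 tested, 6 were called lower than vehicle and lower than with each agent alone. Mitochondrial mRNA was mixed, at 0.746% to 0.774% with vehicle and 1.04%, 0.639% and 0.424% with both agents. Sample 5a was thus above every vehicle library, and Samples 5b and 5c were below. When these genes were left out, the calls against osimertinib alone went from 33 to 12, all higher, and those against vehicle from 461 to 455. Their part in the other results was otherwise not tested.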

How the data were processed

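RNA of H1975–OR cells was sequenced as stranded total RNA libraries depleted of ribosomal RNA with paired-end reads. The deposited values are estimated counts per gene symbol, which the authors made with Kallisto (0.43.0 per the submitters' processing notes, which also name STAR 2.5.2b, CASAVA 1.8.2 and GRCh38) and tximport. They were treated as unscaled counts, which is an assumption. Kallisto shares reads among similar transcripts, so near-identical genes are uncertain. The annotation and tximport settings are not given in the sources used here.

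The counts were rounded and analysed with edgeR 4.0.16 (R 4.3.3). Low genes were removed with filterByExpr, given the groups (minimum count 10, minimum total 15), which left 12503 of 19612. TMM factors and a quasi-likelihood fit of 4 groups with the replicate letter as block were used, with Benjamini-Hochberg adjustment at 0.05 and 5 residual degrees of freedom. The SE is the log2 fold change divided by the square root of F. Sample 3a was left out, as in the study. The labels do not say what a letter shares, and separate passages are stated for vehicle and 1,25(OH)2D3 only, so p-values measure the spread between these libraries, which may be technical. No library was a duplicate of another. The code was tested on simulated data.

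Named genes were up to 12 per direction with the greatest fold change (called, a mean of 50 or more normalized counts in whichever group was higher, no overlap), up to 4 per list by p, up to 6 per comparison with a single agent by p, and VDR, CYP24A1, CAMP, CDH1, CLDN4, MMP2, VIM and EGFR. MTRNR2L genes were left out of these ranks and described as a group. The lists were written from general knowledge, apart from the S and G2/M lists of Seurat 5.3.0. The members, lists and rule were chosen with earlier results of these data known. Positions are from GENCODE release 44 and sequences from RefSeq (GRCh38.p14). DESeq2 1.42.0 was an alternative. Some called genes of the lists are counted but not reported here.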

Additional observations from a re-analysis of the deposited data

How the results depend on the processing

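The number of genes called for both agents against vehicle, 461 as reported, was 62 with no replicate block, 9 and 8 with the 6 compared libraries alone with and without the block, 129 with Sample 3a kept in, 170 with all 14 libraries other than 3a, 894 with DESeq2, and between 47 and 888 with 1 library left out. Against osimertinib alone, 33 became 12 without the block, 148 with DESeq2, 12 without MTRNR2L genes, 66 with DESeq2 and no block, 10 without the letter a libraries, and 15 to 39 with 1 library left out. Against 1,25(OH)2D3 alone, 183 became 32 without the block, 40 with Sample 3a, 81 with all 14 libraries, 615 with DESeq2, 322 with at least 10 counts in every library, 329 with DESeq2 and no block, 354 without the letter a libraries, and 8 to 681 with 1 library left out. For departure from additivity, 0 became 6 with all 14 libraries, 21 with DESeq2, 2 with no filter, 2 with at least 10 counts in every library, 11 with DESeq2 and no block, and 0 to 1 with 1 library left out. The cause of these shifts was not tested. The settings without MTRNR2L genes, with DESeq2 and no block, and without the letter a libraries were chosen after seeing the data; without letter a, 535 genes were called against vehicle, 278 of them among the 461. RLE size factors kept 65 of 65 called named genes and no replicate block kept 16, and none reversed under any alternative.

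Letters did not qualify as a pairing: deviations of same-letter libraries with both agents and vehicle correlated at 0.29, 0.0943 and 0.141 for a, b and c, although each library with both agents correlated best with the vehicle library of its own letter. The block was kept because the comparison was defined with it. With 3 libraries per group and between 4378030 and 5240477 counts each, differences under a level of about 0.695 CPM were not detectable.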

Other observations

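The following called genes lie outside the lists and were named after their values were seen. No list of lysosomal genes was written, so how many of them were called or went the other way was not counted. GPNMB, a glycoprotein of lysosomes and melanosomes, stood at 71.7, 78.6 and 56.6 CPM with vehicle, 278, 414 and 331 CPM with osimertinib alone and 208, 386 and 450 CPM with both agents (2.28 ± 0.23, edgeR adjusted p = 0.0043). GRN, the gene of progranulin, was at 417, 468 and 381 CPM and at 766, 794 and 722 CPM with both agents (0.86 ± 0.07, edgeR adjusted p = 0.0024). RRAGD, a GTPase that acts on mTORC1 at the lysosome, rose by 1.96 ± 0.18, and CTSD, the lysosomal protease cathepsin D, by 1.18 ± 0.25, from 387, 620 and 561 CPM to 1347, 1089 and 1065 CPM. CTSD was at 1400 and 1521 CPM with 1,25(OH)2D3 alone, whereas GPNMB and RRAGD stood near their vehicle levels there. RRAGD and CTSD were not called without the block (edgeR adjusted p = 0.12 and 0.11). ARRDC3, an alpha-arrestin, stood at 224, 164 and 174 CPM with vehicle and 497, 724 and 675 CPM with both agents (1.73 ± 0.18, edgeR adjusted p = 0.0052).

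ERRFI1, an inhibitor of EGFR whose own transcription follows EGFR signaling, fell from 201, 313 and 437 CPM to 115, 149 and 133 CPM (-1.22 ± 0.20, edgeR adjusted p = 0.020, and 0.054 without the block), with 123, 106 and 123 CPM with osimertinib alone.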
